A study of Mus musculus with 8 samples.

Results

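The change with time in the response of mouse peritoneal macrophages to a low dose of LECT2 was measured on 4 of the 8 arrays of the series. These were the arrays labelled as low dosage, 2 at 48 h and 2 at 3.5 h. On each array RNA of macrophages given 0.5 µg/ml LECT2 was hybridised against RNA of macrophages given 0 µg/ml for the same time. The other 4 arrays compared 5 µg/ml LECT2 with 0 µg/ml at the same times. All cells were freshly isolated from the peritoneum, plated and kept in low glucose medium with fetal bovine serum. Each group has 2 replicates from separate experiments on separate mice. The p-values rest on the spread between replicates pooled over all 8 arrays, those of the high dose included, and not on the low dose arrays alone. The LECT2 effect is the log2 ratio of LECT2 over control on one array, and the time difference is the mean effect at 48 h minus the mean effect at 3.5 h.

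The deposited values are ratios of control over LECT2 by the labelled dyes (control in Cy5, LECT2 in Cy3, no dye swap), the reverse of the wording in the titles, and every value below has its sign turned. For the early time the sample titles have 3.5 h, used here, where the channel labels have 3 h. Of the 8 deposited columns 7 follow a scanner file that is recorded under another sample. By these matches all 3.5 h arrays lie on slide 1 and all 48 h arrays on slide 2. So placed, slide and time cannot be told apart. As recorded, replicate 1 of each group lies on slide 1 and replicate 2 on slide 2. The 48 h columns repeat the log ratio of their matched file, with a median gap of 3.5e-07 to 3.7e-07 (log2). The 3.5 h columns do not, with a median gap of 0.062 to 0.20. How the deposited values were processed thus cannot be told apart from time. One column, replicate 1 of the low dose group at 3.5 h, tracked its scanner file least. Over the 20622 probes of a strict background filter its r was 0.807, against 0.990 to 1.00 for the other columns. Over the 31615 probes kept for the tests its r was 0.577, against 0.893 for replicate 2 of that group. On these probes r was 0.966 and 0.939 for the high dose at 3.5 h, and 0.998 to 1.00 for the 48 h columns. The column that tracked least also holds one value, 2.31 after the turn of sign, for 4530 of 39428 probes. Of the 26148 genes tested 683 (2.61%) carry this value. None of the 26 genes called below is among them, and a gene that carries this value is named as such. Of 9 macrophage markers 8 were tested, Adgre1, Csf1r, Itgam and Gata6 among them, and all 8 were well above background in both channels of the 4 arrays.

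LECT2 is a secreted protein first known as a leukocyte chemotactic factor, made mainly by the liver. Macrophages that meet microbial products or cytokines switch on NF-kB, a family of transcription factors held in the cytoplasm by the inhibitors that Nfkbia and Nfkbib encode. NF-kB induces cytokines such as TNF and interleukin 1 together with its own inhibitors, so this wave usually passes. A slower arm runs through interferons and interferon regulatory factors, which bind the interferon-stimulated response element (ISRE) and induce antiviral and GTPase genes.

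The promoters of 5 genes that stand for these arms are shown, each as 250 bases before to 50 after the start (RefSeq, GRCm38.p6). Capitals mark matches, on either strand, to a kB letter pattern (GGG, any 2 bases, TTTCC), an ISRE pattern (GAAA, any 2 bases, GAAA) or an AP-1 pattern (TGANTCA, where N is any base). Il1a (interleukin 1 alpha, chr2:129309923-129310222, minus strand) is shown as a called cytokine and holds an AP-1 match. Nfkbia (the NF-kB inhibitor, chr12:55492598-55492897, minus strand) is shown for its kB match.
Il1a: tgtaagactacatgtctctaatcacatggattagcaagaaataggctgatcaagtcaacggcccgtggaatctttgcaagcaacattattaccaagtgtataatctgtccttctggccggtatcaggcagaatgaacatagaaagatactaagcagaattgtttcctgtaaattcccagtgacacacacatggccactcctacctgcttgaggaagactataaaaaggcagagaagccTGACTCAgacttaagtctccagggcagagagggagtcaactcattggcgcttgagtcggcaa
Nfkbia: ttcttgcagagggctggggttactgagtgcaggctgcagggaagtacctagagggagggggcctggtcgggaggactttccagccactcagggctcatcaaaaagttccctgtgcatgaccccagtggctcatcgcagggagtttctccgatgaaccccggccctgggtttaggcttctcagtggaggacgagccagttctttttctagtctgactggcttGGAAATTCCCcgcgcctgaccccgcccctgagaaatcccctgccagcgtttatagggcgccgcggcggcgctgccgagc
GTPase genes of the interferon arm follow, Gbp5 (chr3:142496684-142496983, plus strand), Gbp2b (chr3:142594597-142594896, plus strand) and Tgtp1 (chr11:48992197-48992496, minus strand). Gbp5 holds an ISRE match before a kB match, Gbp2b an ISRE match before an AP-1 match, and Tgtp1 an ISRE match.
Gbp5: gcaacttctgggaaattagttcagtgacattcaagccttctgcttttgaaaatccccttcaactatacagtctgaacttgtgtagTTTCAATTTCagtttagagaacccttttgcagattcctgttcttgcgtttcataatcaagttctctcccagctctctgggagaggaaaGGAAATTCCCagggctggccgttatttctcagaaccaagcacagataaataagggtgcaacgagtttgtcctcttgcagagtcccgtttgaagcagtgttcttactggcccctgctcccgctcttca
Gbp2b: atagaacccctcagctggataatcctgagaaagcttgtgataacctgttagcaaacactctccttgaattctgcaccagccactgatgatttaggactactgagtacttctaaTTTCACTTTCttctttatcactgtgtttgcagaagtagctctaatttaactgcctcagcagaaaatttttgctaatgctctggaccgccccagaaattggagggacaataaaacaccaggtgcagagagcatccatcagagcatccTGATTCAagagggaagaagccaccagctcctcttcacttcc
Tgtp1: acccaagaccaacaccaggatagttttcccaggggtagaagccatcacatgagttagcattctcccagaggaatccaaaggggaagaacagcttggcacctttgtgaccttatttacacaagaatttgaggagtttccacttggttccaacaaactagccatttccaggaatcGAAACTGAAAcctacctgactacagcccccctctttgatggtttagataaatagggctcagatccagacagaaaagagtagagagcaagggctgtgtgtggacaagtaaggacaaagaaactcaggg
Of all 32851 promoters 1.63% held the kB pattern, 3.44% the ISRE pattern and 7.81% the AP-1 pattern. RefSeq promoters were at hand for 13 of the 15 genes with a symbol that were called lower, and of these 15 promoters 0 held the kB pattern, 0 the ISRE pattern and 2 the AP-1 pattern (Il1a and Zbtb46). In the guanylate-binding protein family 5 of 6 promoters held the ISRE pattern, among immunity-related GTPases 5 of 5, among Ifit, Oas and other antiviral genes 14 of 31, and in the list of NF-kB genes 1 of 22, where 6 of 22 held the kB pattern. A match is a run of letters and was not tested for binding.

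Most genes called between the times were raised by LECT2 at 3.5 h and near the control at 48 h, cytokine and NF-kB genes among them. The time difference passed the threshold (limma, Benjamini-Hochberg adjusted p under 0.05) for 26 of 26148 genes (0.0994%). The effect was lower at 48 h for 22 of them (0.0841%) and higher for 4 (0.0153%). By group means 21 of the 26 lay between -1 and 1 (log2) at 48 h and at or above 1 at 3.5 h, and 4 lay between -1 and 1 at 48 h and at or below -1 at 3.5 h. Fam13c, a gene of the FAM13 family, was the other: it was lower at 48 h and between at 3.5 h. None of the 26 was at or above 1 at 48 h. Of the 26, 19 were well above background on at least 1 array in each channel and time. The other 7 were not, among them Il23a, Ahsa2 and Fam13c. At an unadjusted p under 0.05 the time difference was positive for 4.84% of genes and negative for 5.58%. Of these 2724 genes 810 were between at 48 h and higher at 3.5 h, 575 were between at 48 h and lower at 3.5 h, and 135 were higher at 48 h and between at 3.5 h.

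The number of calls hung on single arrays. For the time difference at the low dose it was 0 without the low dose array at 48 h replicate 1 and 0 without that at 3.5 h replicate 1 (limma; 2107 and 2125 at an unadjusted p under 0.05), where the remaining array of the group is assumed to vary like the other groups. It was 2 without 48 h replicate 2 (Olfr633 and Ppp1r3a, named after their values were seen) and 240 without 3.5 h replicate 2. With the matched scanner files, normexp and loess, it was 230, of which 22 were among the 26.

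**Figure D1:**
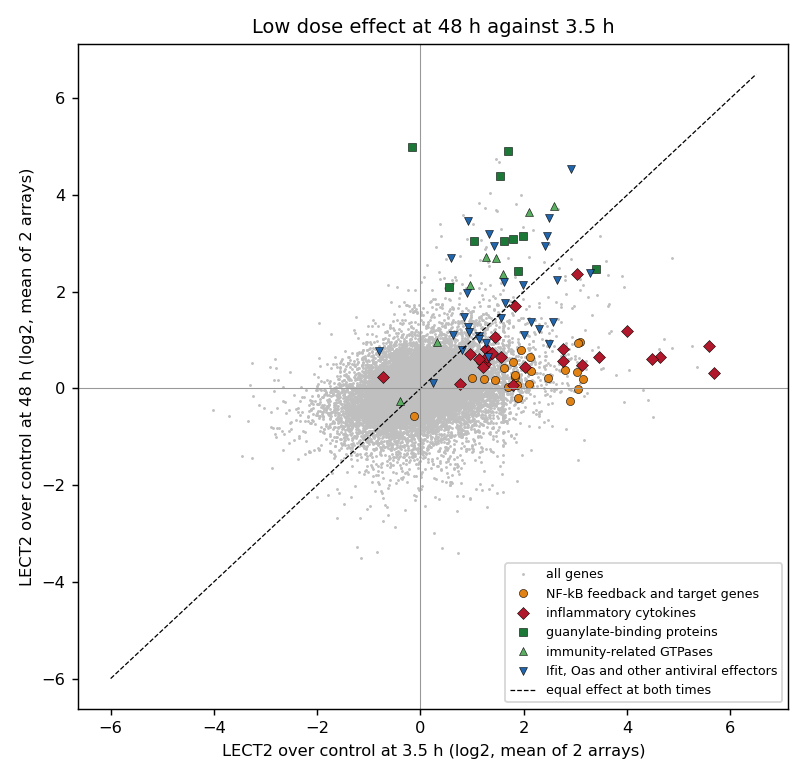
Mean LECT2 effect at 48 h (y axis, log2) against 3.5 h (x axis, log2) for 26148 genes at the low dose, with 5 gene lists in colour and a dashed line of equal effect. Of 24 genes in each list, 23 cytokine and 24 NF-kB genes lie below the line (median effect at 48 h 0.65 and 0.22), and guanylate-binding protein genes mostly lie above it (median 3.07 at 48 h and 1.65 at 3.5 h).

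Among cytokines, the secreted signals of the inflammatory wave, the effect fell for Tnf, Il1a and Il27, and Il23a was called lower with a dim control channel. The Tnf effect was 1.49 and 0.26 at 48 h, against 5.57 and 5.60 at 3.5 h (log2, replicates 1 and 2). The times did not overlap, and the effect fell by 4.71 ± 0.51 (SE, limma adjusted p = 0.0328). Tnf encodes tumour necrosis factor, an early cytokine that activates NF-kB in neighbouring cells. In these bulk samples fewer cells of a type and less RNA per cell cannot be told apart. The Il1a effect was 0.68 and -0.05 at 48 h, against 6.17 and 5.21 at 3.5 h. Both 48 h arrays lay near 0 and both 3.5 h arrays above 5, and the effect fell by 5.38 ± 0.58 (limma adjusted p = 0.0328). Interleukin 1 alpha acts through the interleukin 1 receptor and can work bound to the membrane or released from dying cells.

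Il27 encodes the p28 subunit of interleukin 27, which acts on T cells. Its effect was 0.52 and 0.77 at 48 h, against 3.31 and 3.62 at 3.5 h, with no overlap, and the effect fell by 2.82 ± 0.30 (limma adjusted p = 0.0321). Il23a encodes the p19 subunit of interleukin 23, which sustains T cells that make interleukin 17. Its control channel was not well above background on any of the 4 arrays, so its ratio has only a bound at each time and the size of its time difference is not known. The bound sets the mean LECT2 signal against the lowest signal well above background. By that bound LECT2 was at least 1.05-fold higher at 48 h and at least 11.3-fold higher at 3.5 h. The fitted time difference of -3.99 ± 0.28 (limma adjusted p = 0.022) rests on that dim channel, and the bounds alone do not give a fall.

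Of the 25 listed inflammatory cytokines 24 were tested, and these 4 were the ones called, all lower. The median time difference of the list was -0.84, against 0.02 over all genes, with a median effect of 0.65 at 48 h and 1.80 at 3.5 h. On 13 of the 24 both 48 h arrays lay below both 3.5 h arrays, against 20.4% of all genes. This list and those below were chosen with earlier results of these data known, so their shares against all genes are no independent evidence. Il1b encodes interleukin 1 beta, the inflammasome-processed relative of Il1a. The Il1b effect was 3.15 and 1.57 at 48 h, against 3.28 and 2.76 at 3.5 h, and the times overlapped. The difference of -0.66 ± 0.64 did not pass the test (limma adjusted p = 0.828, 95% interval -2.16 to 0.84). The difference between Il1b and Il1a was not tested.

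Other cytokines of the list had large differences short of the threshold. The effect on Lif, a cytokine of the interleukin 6 family, was 1.50 and -0.29 at 48 h, against 4.38 and 4.60 at 3.5 h (limma adjusted p = 0.086). The effect on Il12a, which encodes the p35 subunit of interleukin 12, was 4.46 and 3.52 at 3.5 h, and at 48 h neither channel was well above background. For Il6, a cytokine of the acute phase response, it was 1.36 and -0.37 at 48 h, against 3.45 and 2.81 at 3.5 h (limma adjusted p = 0.199). For Lif and Il6 both 48 h arrays lay below both 3.5 h arrays. Csf3, the granulocyte colony stimulating factor gene, was at 1.54 and 0.22 at 48 h, against 6.26 and 4.27 at 3.5 h, and its difference of -4.38 ± 0.70 had a limma adjusted p of 0.101. Il15 was at -1.58 ± 0.48 and carries the repeated value at 3.5 h replicate 1. With the matched scanner files and loess 9 of the 24 cytokines passed the threshold, all lower, where 0.642% of all genes were called lower and 0.237% higher.

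**Figure D2:**
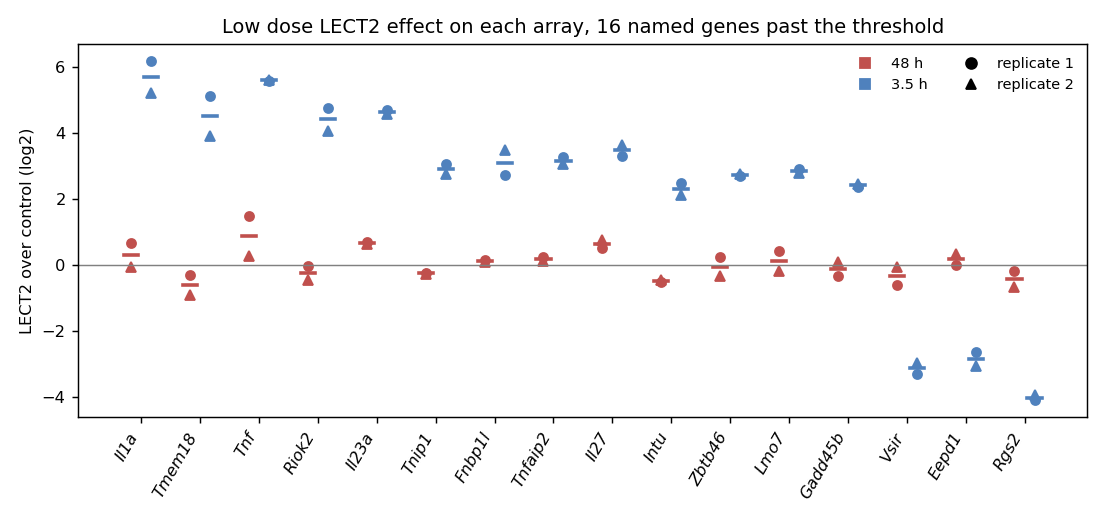
LECT2 over control (log2, y axis) on each low dose array for the 16 named genes past the threshold, at 48 h (red) and 3.5 h (blue), with circles for replicate 1, triangles for replicate 2 and bars for the mean of 2 arrays. The 48 h points lie between -0.90 and 1.49, while the 3.5 h points lie between 2.12 and 6.17 for the 13 genes on the left and between -4.10 and -2.62 for the 3 on the right.

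Chemokines are the attractants of other leukocytes. No CC or CXC chemokine was called, of 12 tested in each list, and the median time difference was -0.41 for CC and -0.79 for CXC chemokines. At an unadjusted p under 0.05, 2 CC chemokines were lower (Ccl3 and Ccl4), 4 CXC chemokines were lower and 1 was higher, where 5.58% of all genes were lower and 4.84% higher. Ccl3, a ligand of CCR1, had effects of 1.61 and 0.68 at 48 h, against 3.86 and 3.43 at 3.5 h (difference -2.50 ± 0.45, limma adjusted p = 0.115). Ccl5, an attractant of T cells and monocytes, had effects of 3.27 and 3.05 at 48 h, against 3.92 and 3.04 at 3.5 h. The Ccl3 times were apart and the Ccl5 times overlapped. The neutrophil attractant Cxcl1 was at 1.06 and -1.38 at 48 h, against 3.27 and 3.05 at 3.5 h (difference -3.32 ± 0.88, limma adjusted p = 0.244). Cxcl14 was the one with a positive difference at an unadjusted p under 0.05: it was at 0.67 and 0.30 at 48 h, against -0.97 and -1.30 at 3.5 h (limma adjusted p = 0.228).

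The genes that restrain or carry NF-kB signalling shared one direction. All 24 tested of 25 listed NF-kB feedback and target genes had a negative time difference, where 12602 of all 26148 genes did. Of the 24, 2 passed the threshold, both lower, and 18 were lower at an unadjusted p under 0.05, where 5.58% of all genes were. The median effect of the list was 0.22 at 48 h and 1.92 at 3.5 h. The median difference was -1.73, and -1.64 and -1.92 within replicates 1 and 2. On 20 of the 24 both 48 h arrays lay below both 3.5 h arrays, against 20.4% of all genes. Since the list was chosen with earlier results of these data known, these shares describe it and are no independent evidence.

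The called genes were Tnip1 and Tnfaip2. Tnip1 encodes an adaptor that binds the A20 deubiquitinase and dampens NF-kB signalling. Its effect was -0.25 and -0.26 at 48 h, against 3.04 and 2.75 at 3.5 h, and the effect fell by 3.15 ± 0.29 (limma adjusted p = 0.022). Tnfaip2 is a TNF-induced gene whose product takes part in membrane nanotubes between cells. Its effect was 0.25 and 0.13 at 48 h, against 3.25 and 3.06 at 3.5 h, and the effect fell by 2.97 ± 0.31 (limma adjusted p = 0.0321). In both genes the replicates of a time lay close together and the times were far apart. The second probes of Tnip1 and Tnfaip2 gave -2.58 and -2.95.

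Within the inhibitor family the differences were of like size. Nfkbia was at 0.87 and -0.19 at 48 h, against 3.32 and 2.73 at 3.5 h (difference -2.69 ± 0.45, limma adjusted p = 0.112). Nfkbib was at 0.07 and 0.35 at 48 h, against 2.75 and 2.18 at 3.5 h (limma adjusted p = 0.086). Nfkbiz, a nuclear member that also acts as a coactivator, was at 0.40 and -0.43 at 48 h, against 2.75 and 3.35 at 3.5 h (limma adjusted p = 0.113). None of the 3 passed the threshold, and in each the times did not overlap. Of the transcription factor subunits, Nfkb1 had a difference of -1.81 ± 0.33, Nfkb2 of -1.78 ± 0.28 and Relb of -1.25 ± 0.30. Rel was at -1.99, but it carries the repeated value and its control channel was not well above background at 3.5 h. The adaptor gene Traf1 and the adhesion gene Icam1 were at -2.12 ± 0.36 and -2.12 ± 0.39. With the matched scanner files and loess 12 of the 24 were called, all lower, against 0.642% of all genes.

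**Figure D3:**
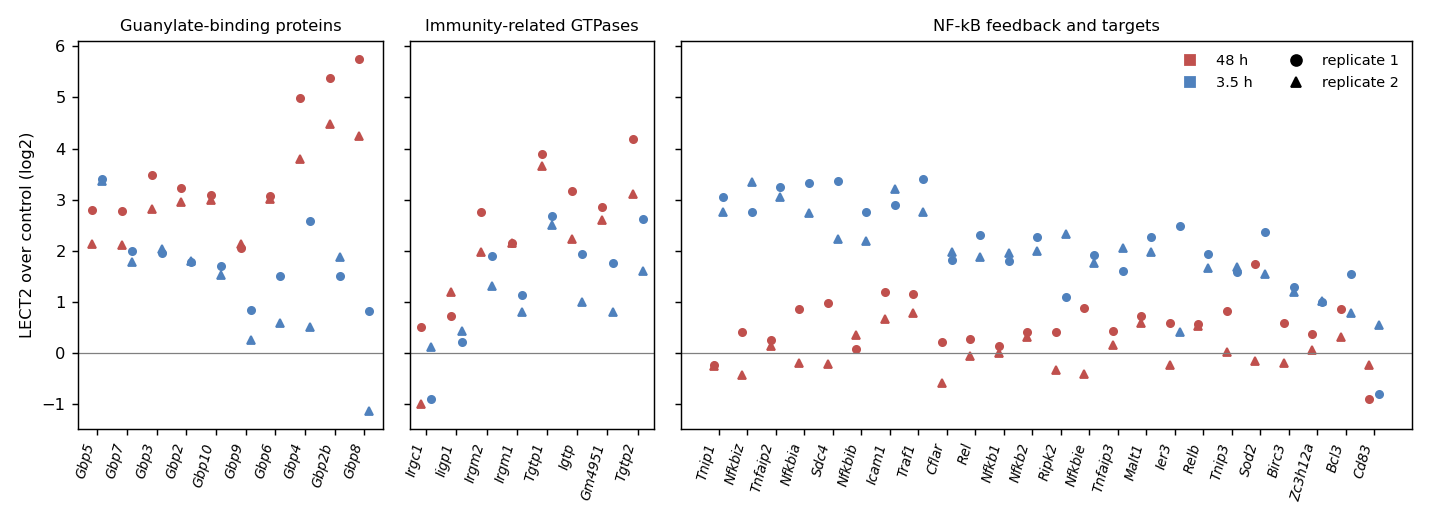
LECT2 over control (log2, y axis) on each low dose array for members of 3 gene lists, at 48 h (red) and 3.5 h (blue), circles for replicate 1 and triangles for replicate 2, ordered by time difference. In 9 of 10 guanylate-binding protein genes and 7 of 8 immunity-related GTPase genes both 48 h points lie above both 3.5 h points, and in 20 of 24 NF-kB genes below.

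Genes with other functions were also called lower at 48 h. Tmem18 encodes a small membrane protein of the nuclear envelope. Its effect was -0.29 and -0.90 at 48 h, against 5.10 and 3.91 at 3.5 h, and the effect fell by 5.10 ± 0.46 (limma adjusted p = 0.022). Riok2 encodes a kinase needed to mature the small ribosomal subunit. Its effect was -0.03 and -0.44 at 48 h, against 4.75 and 4.06 at 3.5 h, and the effect fell by 4.64 ± 0.39 (limma adjusted p = 0.022). Both were below 0 on both 48 h arrays and far above 0 on both 3.5 h arrays.

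Fnbp1l, whose product links membrane curvature to actin, was at 0.14 and 0.10 at 48 h, against 2.71 and 3.47 at 3.5 h. Lmo7, an actin-associated LIM domain gene, was at 0.42 and -0.18 at 48 h, against 2.90 and 2.79 at 3.5 h. Gadd45b, a stress gene of growth arrest, was at -0.33 and 0.08 at 48 h, against 2.37 and 2.47 at 3.5 h. The effect on these 3 genes fell by 2.97, 2.72 and 2.55 (limma adjusted p = 0.0449 for each), and their times did not overlap. The second probe of Lmo7 gave a difference of -1.25. Zbtb46, a transcription factor gene best known from classical dendritic cells, was at 0.23 and -0.32 at 48 h, against 2.69 and 2.75 at 3.5 h, and the effect fell by 2.77 ± 0.33 (limma adjusted p = 0.0449). Of the 11 tested dendritic cell markers it was the one called, and the list's median difference was -0.42, and -0.74 without the low dose array at 3.5 h replicate 1. The second Zbtb46 probe gave -2.13. The summed LECT2 signal of those markers was 42538 to 58645 at 48 h and 34040 to 50404 at 3.5 h, and the summed control signal was 56211 to 67657 at 48 h and 42304 to 44926 at 3.5 h. The part of dendritic cells in the Zbtb46 value was not tested. Intu, a gene of planar cell polarity and cilium formation, was at -0.52 and -0.45 at 48 h, against 2.47 and 2.12 at 3.5 h (limma adjusted p = 0.0449), while its second probe gave a difference of -0.95.

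Both of the remaining called genes with a symbol were dim. Ahsa2, a relative of the Hsp90 activator gene, was at background in both channels at 48 h and was at least 2.93-fold higher with LECT2 at 3.5 h (fitted difference -2.58 ± 0.31, limma adjusted p = 0.0449). Fam13c was at least 1.24-fold lower with LECT2 at 48 h and at background in both channels at 3.5 h (fitted difference -2.95 ± 0.33, limma adjusted p = 0.0374). Of the 26 called genes 8 had no symbol in RefSeq, 7 of them lower and 1 higher.

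The effect was higher at 48 h for Rgs2, Eepd1 and Vsir, which were below the control with LECT2 at 3.5 h. Rgs2 encodes a protein that shortens signalling through Gq-coupled receptors. Its effect was -0.19 and -0.68 at 48 h, against -4.10 and -3.94 at 3.5 h, a rise of 3.58 ± 0.35 (limma adjusted p = 0.0275). Eepd1 is a target of the liver X receptors in macrophages and promotes cholesterol efflux. Its effect was 0.01 and 0.34 at 48 h, against -2.62 and -3.07 at 3.5 h, a rise of 3.02 ± 0.31 (limma adjusted p = 0.0321). Vsir encodes VISTA, an inhibitory checkpoint receptor of myeloid and T cells. Its effect was -0.62 and -0.07 at 48 h, against -3.29 and -2.97 at 3.5 h, a rise of 2.79 ± 0.33 (limma adjusted p = 0.0449). All 3 were clearly below 0 on both 3.5 h arrays and nearer to 0 on both 48 h arrays. The second probe gave 2.81 for Rgs2 and 1.09 for Vsir.

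Among the next genes by p with a positive difference, 4 that did not pass the test are given. Lpar6, a lysophosphatidic acid receptor gene, was at -0.35 and -0.45 at 48 h, against -2.71 and -3.35 at 3.5 h (limma adjusted p = 0.0561, and 0.0483 with the repeated value of the 3.5 h column taken as missing). Tmem86a, a lysoplasmalogenase gene, Rcbtb2 and the solute carrier gene Slc45a4 had differences of 2.94 ± 0.38, 2.05 ± 0.29 and 1.95 ± 0.28 (limma adjusted p from 0.0619 to 0.0860). For these 4 genes the 48 h arrays lay above the 3.5 h arrays.

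The channel signals show which side of the ratio differed between times, on a log2 scale after loess and scaling between arrays of the matched files. Since the times are on separate slides, these levels were not tested. The Tnf signal was 11.31 and 10.79 with LECT2 at 48 h, against 17.33 and 17.43 at 3.5 h, while the control signal was 10.23 and 10.53 at 48 h, against 11.54 and 11.73 at 3.5 h. The Tnf signals with LECT2 were further apart between times than those of the control. The Tnip1 signal with LECT2 was 12.06 and 12.10 at 48 h, against 16.10 and 15.85 at 3.5 h, and in the control 12.29 and 12.27 at 48 h, against 13.10 and 12.96 at 3.5 h. For Rgs2 it was 14.39 and 13.95 with LECT2 at 48 h, against 10.80 and 11.21 at 3.5 h, and 14.59 and 14.66 in the control at 48 h, against 15.05 and 15.05 at 3.5 h. Here the LECT2 channel was the low one at 3.5 h and stood near the control at 48 h.

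**Figure D4:**
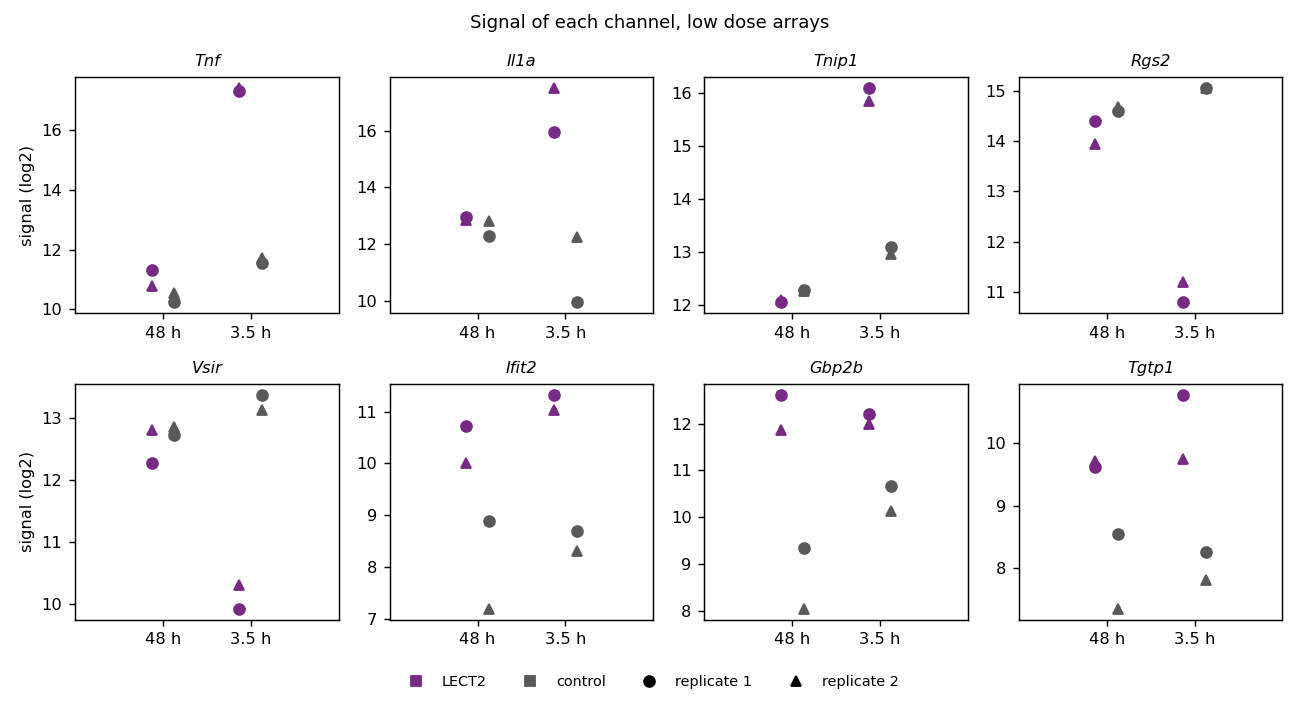
Signal (log2, y axis, scale differs by panel) of the LECT2 channel (purple) and the control channel (grey) at 48 h and 3.5 h for 8 genes, circles for replicate 1 and triangles for replicate 2. For Tnf, Il1a and Tnip1 the LECT2 points at 3.5 h stand above all others, for Rgs2 and Vsir below, and for Ifit2, Gbp2b and Tgtp1 the channels stay apart at both times.

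No member of the interferon-induced families was called. In the Schlafen family, growth regulators of immune cells, 5 of 7 genes had a negative time difference (median -0.52), and 2 a positive one. The median was 0.20 within replicate 1 and -0.35 within replicate 2. Of the 7 genes 1 carries the repeated value, and with that value taken as missing the median was -0.073, so it has no settled size or sign. Guanylate-binding proteins are GTPases that attack vacuoles holding microbes. Of 11 listed, 10 were tested, and 9 had a positive and 1 a negative time difference. The median effect was 3.07 at 48 h and 1.65 at 3.5 h, with a median difference of 1.49, and 1.07 with the matched scanner files and loess, against 0.02 and 0.00 over all genes. Both 48 h arrays lay above both 3.5 h arrays for 9 of 10, against 20.9% of all genes. At an unadjusted p under 0.05, 8 were higher and 1 lower, where 4.84% of all genes were higher and 5.58% lower. Probes of this family can share sequence, so a value may mix members.

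Gbp2b had effects of 5.37 and 4.47 at 48 h, against 1.50 and 1.88 at 3.5 h (difference 3.23 ± 0.60, limma adjusted p = 0.115, and 1.85 with loess). Gbp2 had effects of 3.23 and 2.96 at 48 h, against 1.78 and 1.79 at 3.5 h (limma adjusted p = 0.323). Gbp8 was at 5.75 and 4.25 at 48 h, against 0.81 and -1.15 at 3.5 h, with a wide error (5.17 ± 1.04). In these 3 the times did not overlap and LECT2 was over the control at 48 h on both arrays. Gbp5, which promotes inflammasome assembly, ran the other way: its effect was 2.80 and 2.13 at 48 h, against 3.41 and 3.37 at 3.5 h. Its difference of -0.92 ± 0.38 did not pass (limma adjusted p = 0.456), and with the matched scanner files and loess it was -2.28 (limma adjusted p = 0.0211). Its promoter, shown above, holds a kB match beside the ISRE match, and it is the 1 of the 6 family promoters that does. These promoters cover 5 of the 11 listed genes, and whether the match bears on the direction of Gbp5 was not tested.

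Immunity-related GTPases, which also act on vacuoles of intracellular microbes, were at a median effect of 2.53 at 48 h and 1.37 at 3.5 h. All 8 had a positive difference (median 1.19, and 0.58 with loess), and for 7 the 48 h arrays lay above the 3.5 h arrays, against 20.9% of all genes. Igtp was at 3.17 and 2.22 at 48 h, against 1.93 and 0.99 at 3.5 h (limma adjusted p = 0.471). Irgm1 was at 2.16 and 2.14 at 48 h, against 1.13 and 0.80 at 3.5 h (limma adjusted p = 0.466). Tgtp1 and Tgtp2, near-identical copies that a probe may not separate, had differences of 1.19 ± 0.50 and 1.54 ± 0.58, and with loess of -0.50 and 1.16, so the direction for Tgtp1 turned.

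The Ifit, Oas and other antiviral effector genes had like median effects at both times. Of 34 listed, 31 were tested, with a median effect of 1.45 at 48 h and 1.42 at 3.5 h. The median difference was 0.14, and 0.098 with the processed signals of the matched scanner files. With normexp (offset 50) on those files it was -0.33 with loess and -0.31 with median centring, so it has no settled sign. Without the low dose array at 3.5 h replicate 1 the median difference of the deposited values was 0.40. Ifit2, an RNA-binding antiviral gene, was at 4.83 and 4.26 at 48 h, against 2.84 and 2.98 at 3.5 h (difference 1.64 ± 0.36, limma adjusted p = 0.163), but its difference was -0.33 with loess. Its control signal differed between times: the software's processed signal was 58.9 and 45.6 units at 48 h, against 359 and 194 at 3.5 h. Members also ran in opposite directions. Ifi44 was at 3.07 and 3.33 at 48 h, against 1.25 and 1.41 at 3.5 h (limma adjusted p = 0.115). Isg15, a ubiquitin-like modifier gene, was at 0.82 and 1.01 at 48 h, against 2.72 and 2.26 at 3.5 h (limma adjusted p = 0.122, and 0.0187 with loess). The Ifi44 values were higher at 48 h and the Isg15 values lower, each with no overlap.

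Upstream of these genes, the list of STAT, IRF and SOCS genes holds regulators of the interferon response. Irf7, the amplifier of type I interferon production, was at 4.20 and 2.97 at 48 h, against 1.33 and 0.32 at 3.5 h (difference 2.76 ± 0.74, limma adjusted p = 0.252). Irf8, a factor of the myeloid lineage, was at 1.30 and 0.94 at 48 h, against -0.77 and -1.12 at 3.5 h (limma adjusted p = 0.0997, and 0.0218 with loess). Irf1 was at 1.67 and 1.26 at 48 h, against 1.68 and 1.48 at 3.5 h, and its times overlapped. Socs1, a feedback inhibitor of cytokine receptors, was at 2.06 and 1.52 at 48 h, against 3.07 and 2.19 at 3.5 h (limma adjusted p = 0.537). The whole list of 19 STAT, IRF and SOCS genes had a median difference of -0.08, and -0.012 without the low dose array at 3.5 h replicate 1, and no call.

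Of the 16750 genes with a symbol, 26 had a LECT2 effect that was large at both times, all higher with LECT2. The rule was a mean effect of at least 2 in size (log2) with the same sign at 48 h and 3.5 h. Genes without a symbol were not counted. The 10 with the largest smaller-of-both effects are described here. Beside Ccl5 and Ifit2, above, Ifit3 was at 3.67 and 3.38 at 48 h, against 2.67 and 2.30 at 3.5 h, with a 95% interval of the time difference of 0.27 to 1.82 and a difference of -0.13 with loess. Acod1, which makes the antimicrobial metabolite itaconate, was at 3.39 and 1.89 at 48 h, against 3.67 and 3.51 at 3.5 h (95% interval -2.23 to 0.34). Calhm6, a channel gene of macrophages, was at 3.66 and 2.32 at 48 h, against 3.22 and 1.75 at 3.5 h (95% interval -0.95 to 1.96). None of these differences passed the test, and equal effects at both times were not shown. The interval for Ccl5 was -1.28 to 0.65, for Tgtp1 0.04 to 2.34 and for Gbp5 -1.80 to -0.05. Ifi213, a gene of the interferon-inducible PYHIN family, belongs to the 10 by its table values, but its 3.5 h replicate 1 value is the repeated one and its control channel was at background, which leaves LECT2 at least 1.23-fold higher at 48 h and at least 1.58-fold higher at 3.5 h.

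For the other members of that group the 48 h arrays disagreed. Cxcl3, a neutrophil attractant, was at 5.52 and -0.13 at 48 h, against 5.37 and 4.35 at 3.5 h (95% interval -6.63 to 2.29). AA467197 was at 5.19 and 0.15 at 48 h, against 3.56 and 2.28 at 3.5 h. For Cxcl3 the software's processed signal at 48 h was 1441 and 1059 units with LECT2, against 31.4 and 1162 in the control. For AA467197 it was 376 and 109 units with LECT2, against 10.3 and 98.2 in the control. The control of each gene was well above background on only 1 array at 48 h, and the large replicate 1 ratios rest on the low control signals. In both genes the ratio at 48 h was large in replicate 1 and not in replicate 2. The formyl peptide receptor genes Fpr1 and Fpr2, which guide phagocytes to bacterial peptides, had the same split, with Fpr1 at 3.69 and -0.64 and Fpr2 at 3.71 and 0.81 at 48 h, against 4.08 and 2.56, and 3.77 and 2.39, at 3.5 h. Arg1, the arginase of alternatively activated macrophages, was at 3.01 and -0.31 at 48 h, against -0.39 and -3.54 at 3.5 h. The Arg1 difference of 3.32 ± 1.60 did not pass the test (limma adjusted p = 0.537), and the replicates of each time lay far apart. The Arg1 difference was 3.41 within replicate 1 and 3.23 within replicate 2.

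The C-type lectin gene Cd209a, a family relative of human DC-SIGN, was below 0 at both times. Its effect was -3.40 and -1.98 at 48 h, against -2.42 and -0.79 at 3.5 h. The times overlapped, and the difference of -1.08 ± 0.64 did not pass the test (limma adjusted p = 0.633). With the matched scanner files and loess it was 0.22, so its direction turned. Cd209b was at -3.19 and -1.81 at 48 h, against -1.30 and -0.75 at 3.5 h, a difference of -1.47, and 0.27 with loess, so its direction turned too. Probes of the Cd209 family can share sequence.

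Antigen processing and MHC genes had a positive difference in 24 of 25, with a median effect of 1.16 at 48 h and 0.54 at 3.5 h and a median difference of 0.54. None was called, and for 15 of the 25 the 48 h arrays lay above the 3.5 h arrays, against 20.9% of all genes. The median difference was 0.85 within replicate 1 and 0.19 within replicate 2, and 0.33 without the low dose array at 3.5 h replicate 1. Cd74, the invariant chain of MHC class II, was at 2.05 and 1.27 at 48 h, against -0.23 and 0.31 at 3.5 h (limma adjusted p = 0.26). H2-Aa, a class II chain, was at 1.75 and 1.43 at 48 h, against -0.75 and 0.46 at 3.5 h (limma adjusted p = 0.272). In both genes the times were apart. The lists of respiratory chain, cytosolic ribosomal protein, cell cycle and cholesterol synthesis genes had median differences of 0.01, 0.19, -0.06 and -0.13 and no call. Without the low dose array at 3.5 h replicate 1 these were 0.14, 0.33, 0.39 and 0.0042, so the signs for cell cycle and cholesterol synthesis turned.

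In lipid mediator synthesis, Ptgs2, the inducible cyclooxygenase, was at 1.23 and -0.17 at 48 h, against 5.24 and 3.71 at 3.5 h (limma adjusted p = 0.101). Ptgs1, the constitutive enzyme, was at 0.63 and 0.43 at 48 h, against -0.81 and -2.02 at 3.5 h (limma adjusted p = 0.163). The enzymes differed in direction, with a difference of -3.95 for Ptgs2 and 1.94 for Ptgs1, neither past the threshold. Ch25h, which makes the antiviral oxysterol 25-hydroxycholesterol, was at 2.46 and -0.43 at 48 h, against 5.05 and 4.37 at 3.5 h (limma adjusted p = 0.252). Fos, a subunit of AP-1, was at 1.14 and -0.31 at 48 h, against -2.72 and -2.89 at 3.5 h (limma adjusted p = 0.176), so it was below the control early on both arrays.

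**Figure D5:**
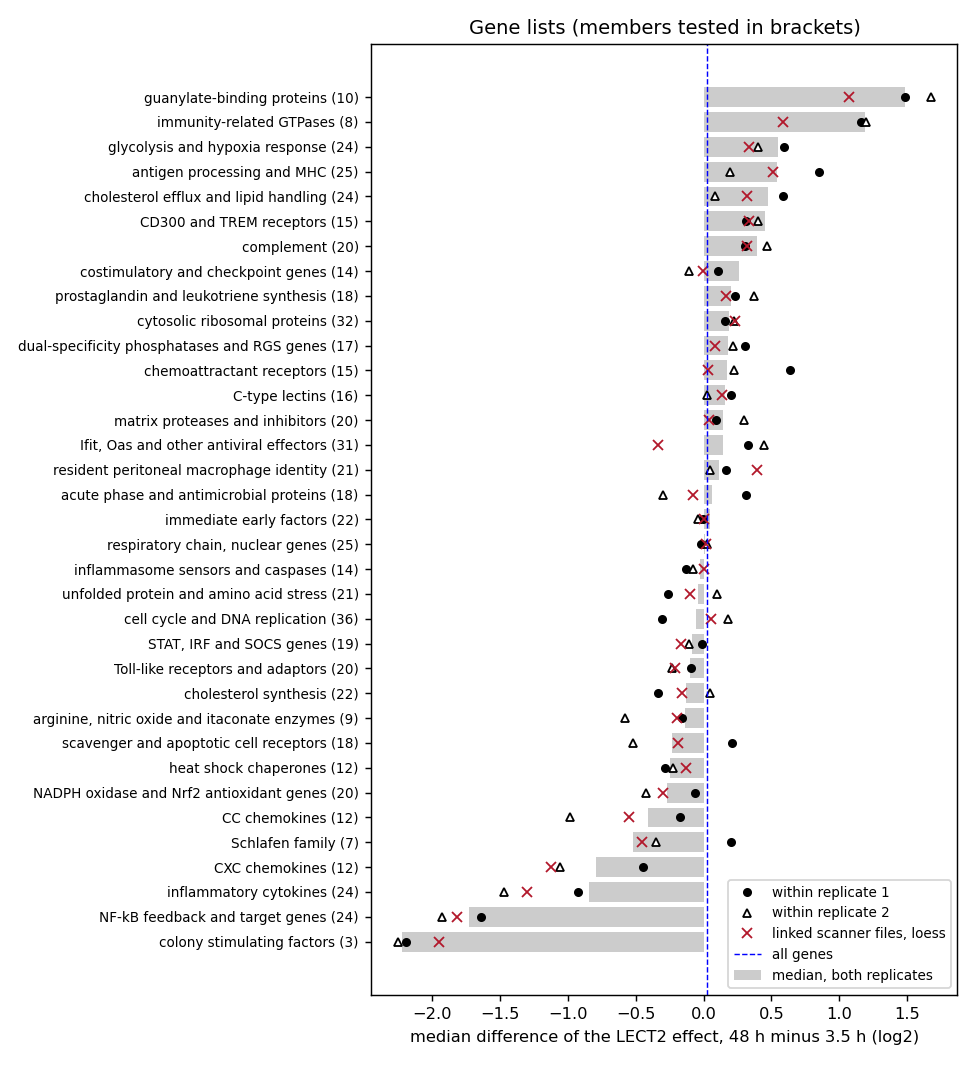
Median time difference (48 h minus 3.5 h, log2, x axis) of 35 gene lists, with bars for both replicates, circles and triangles for each replicate alone, crosses for the matched scanner files with loess and a dashed line for all genes (0.02). Colony stimulating factors (-2.22) and NF-kB genes (-1.73) lie furthest left, guanylate-binding proteins (1.49) and immunity-related GTPases (1.19) furthest right. The colony stimulating factor list has only 3 genes, with differences from -4.38 to 0.20. Of these, 1 was well above background in both channels of all low dose arrays.

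The time difference at the low dose was set against that at the high dose in the same fit. No gene passed the threshold for low minus high (0 of 26148, limma; 2541 at an unadjusted p under 0.05, 9.72%). Without the low dose array at 3.5 h replicate 2, 96 genes passed. The control channels of the low and high arrays of one time and replicate correlate at 0.979 to 0.995, more than other pairs of arrays of one time (0.961 to 0.980), and the labels do not say whether they held the same RNA, so similar values at both doses are no independent evidence. Tnf had a time difference of -4.71 at the low dose and -5.32 at the high dose. In the same order Tnfaip2 was at -2.97 and -3.40, Tnip1 at -3.15 and -2.53, Rgs2 at 3.58 and 2.66, and Eepd1 at 3.02 and 2.80. Some other called genes were further apart between doses, with Vsir at 2.79 and 1.31 and Lmo7 at -2.72 and -1.47. At 48 h with the high dose, Vsir had effects of -2.41 and -2.38, and Lmo7 of 2.03 and 2.29. Il23a, at -3.99 and -6.05, and Fam13c, at -2.95 and -1.45, were dim at the low dose. None of these genes passed the test of the difference. The 95% interval of that difference was -1.06 to 2.28 for Tnf and -0.58 to 1.44 for Tnfaip2. For Vsir it was 0.41 to 2.55 and for Lmo7 -2.33 to -0.19.

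The genes with the smallest p for low minus high are given as values. Il19, a cytokine of the interleukin 10 family, was at 0.96 at the low dose and -6.22 at the high dose, a gap of 7.18 ± 0.70 (limma adjusted p = 0.261, and 0.0438 with the processed signals of the matched files). A second Il19 probe gave -1.76 at the low dose, against the sign of the first. Il27 was at -2.82 at the low dose and -5.64 at the high dose, a gap of 2.81 ± 0.42 (limma adjusted p = 0.468). C1ql2, Tmem176a and Rab3il1 had gaps of 3.39, 2.76 and 2.43, with the time difference at the low dose above that at the high dose. Cd24a, a surface glycoprotein gene, was at -1.66 at the low dose and 2.10 at the high dose, a gap of -3.76 ± 0.55 (limma adjusted p = 0.468). Naip1, Rbak, Ift80 and Zbtb12 had gaps of -2.66, -2.90, -2.38 and -2.94. None of these 10 genes passed the test of the difference.

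Markers of other cell types were set beside these results by their lists. No marker of T and NK, B or mast cells, neutrophils, mesothelium and fibroblasts or red blood cells was called. The median time difference was 0.13 for T and NK cells (16 of 17 tested), -0.25 for B cells (9 of 10), -0.29 for mast cells (8 of 10), 0.09 for neutrophils (9 of 11) and -0.46 for mesothelium and fibroblasts (16 of 16). Within replicates 1 and 2 the median was -0.07 and 0.41 for T and NK cells, 0.46 and -1.08 for B cells, 1.08 and -1.20 for mast cells, -0.07 and 0.09 for neutrophils and -0.61 and 0.07 for mesothelium and fibroblasts, so the replicates ran opposite ways. Without the low dose array at 3.5 h replicate 1 it was 0.39, -0.71, -1.25, 0.41 and -0.09 in the same order. It was -1.07 for red blood cells (4 of 8), and -0.32 without that array. The summed LECT2 signal of red blood cell markers was 985 to 1108 at 48 h and 3555 to 28326 at 3.5 h, and the summed control signal was 969 to 1062 at 48 h and 2161 to 6071 at 3.5 h. For B cells 8 of 9 and for T and NK cells 12 of 16 tested markers were above background in both channels of the 4 arrays, Cd79a and Cd3e among them. The summed LECT2 signal of mast cell markers was 2171 to 2217 at 48 h and 10009 to 10084 at 3.5 h, and that of mesothelium and fibroblast markers 49925 to 60525 at 48 h and 19931 to 24219 at 3.5 h. In the control these sums were 2355 to 2661 at 48 h and 5776 to 19512 at 3.5 h for mast cells, and 63716 to 108675 at 48 h and 22520 to 76467 at 3.5 h for mesothelium and fibroblasts. The part of these cells in the time differences was not tested.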

How the data were processed

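The 8 two-colour Agilent arrays were read with Feature Extraction 10.7.3.1, per the submitters' processing notes. The value table deposited by the authors holds log2 ratios of control over LECT2, whose normalization is not given in the sources used here. Its 48 h columns repeat the software's log ratio of the matched file, and its 3.5 h columns do not. The scanner files hold intensities, log10 ratios and 0 or 1 flags for background and saturation (per the file headers), and were set against the table to match columns to files. Probes well above background on at least 2 arrays in a channel were kept (31615 of 39428), with 1 probe per gene, leaving 26148 genes, 16750 with a RefSeq symbol. One limma 3.58.1 fit (R 4.3.3) of 4 group means over all 8 arrays, with 4 residual degrees of freedom, gave the time difference and low minus high dose, adjusted by Benjamini-Hochberg. The depth of arrays is set by their number: the median SE of the time difference was 0.40. The script was tested on simulated data. Named were the called genes with a symbol, the next genes by p, the persisting genes and genes chosen by name; some are not reported here. Members and lists were chosen with earlier results of these data known. Same-numbered replicates correlated at -0.06 to 0.47 between groups and were not treated as pairs.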

Additional observations from a re-analysis of the deposited data

How the results depend on the processing

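Against 26 genes called for the time difference at the low dose, the count was 230 with the matched scanner files, normexp and loess, 110 with median centring of them, 53 with the strict background filter, and 0 with the files as recorded, with no filter, with a trended robust fit and with only the 4 low dose arrays (limma; 489, 3814, 2572 and 2699 at an unadjusted p under 0.05). It ranged from 0 to 240 without one low dose replicate, and was 13 without the 3.5 h replicate 1 under the strict filter, an alternative chosen after seeing the data. With the replicate number as a block it was 28, with 12 of 16 named calls left (adjusted p up to 0.055); the numbers are not shown to pair the samples. With the median over a gene's probes 11 of the 16 were left. For low minus high dose, with 0 called, the count was 1 with the processed signals and 0 to 96 without one low dose replicate. With the files as recorded, the time difference had the opposite sign for Il1a (1.25), Tnf (0.050), Riok2 (0.66), Il23a (1.12), Tnip1 (0.82), Fnbp1l (0.30), Tnfaip2 (0.059), Il27 (0.19), Intu (0.59), Zbtb46 (0.41), Lmo7 (0.88), Gadd45b (0.54), Rgs2 (-1.01), Eepd1 (-0.52) and Vsir (-0.82), none past the threshold. By the matches of values, the files recorded under the low dose at 48 h follow high dose columns, 1 of 3.5 h and 1 of 48 h. The files recorded under the low dose at 3.5 h follow low dose columns, 1 of 3.5 h and 1 of 48 h. By these matches each recorded low dose group mixes both times. The cause of the opposite signs was not tested. By the matches slide cannot be told apart from time, and neither can the processing of the deposited values. These and the 2 arrays per group limit every value.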

Other observations

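The lists of chemoattractant receptors and of CD300 and TREM receptors had median time differences of 0.17 and 0.45, and the second was 0.18 without the low dose array at 3.5 h replicate 1. None of the 15 genes tested in each list passed the threshold. With the matched scanner files and loess 1 chemoattractant receptor was called higher and 1 lower, and 2 CD300 and TREM receptors higher and 3 lower, where 0.237% of all genes were called higher and 0.642% lower. Ccr1, a receptor for CC chemokines, was at 0.65 and 0.38 at 48 h, against -1.39 and -1.89 at 3.5 h (limma adjusted p = 0.101). Its difference was positive, while Ccrl2, an atypical receptor that does not signal like other chemokine receptors, was at -0.28 and -0.34 at 48 h, against 3.00 and 2.09 at 3.5 h (difference -2.85 ± 0.39, limma adjusted p = 0.0829). Cd300lb, an activating receptor gene of myeloid cells, was at -0.87 and -0.48 at 48 h, against -3.82 and -2.85 at 3.5 h (limma adjusted p = 0.086). Its relative Cd300lf, an inhibitory receptor gene, had a difference of 1.82 ± 0.34 (limma adjusted p = 0.116). Nlrp3, the inflammasome sensor gene, was at 0.70 and 0.40 at 48 h, against 2.80 and 3.25 at 3.5 h (limma adjusted p = 0.123). These genes were chosen after their values were seen.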
